A study of Mus musculus with 16 samples.

Results

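Neat1, Malat1, Meg3, Miat and Kcnq1ot1 are long noncoding RNAs (lncRNAs) that are retained largely in the nucleus. They were taken by symbol from the tables of total and polyribosomal RNA, and all 5 were present among 24946 genes. Total and polyribosomal RNA were sequenced from neural stem cells (NSCs) of the mouse ventricular-subventricular zone (V-SVZ), the niche beside the lateral ventricle. The 8 cultures were 4 Tsc2 mut/mut cultures and 4 Tsc2 wt/wt cultures, and each gave 1 polyribosomal and 1 total RNA library, so 16 libraries fell into 4 groups of 4. Tsc2 encodes tuberin, which restrains the kinase complex mTORC1. In mut/mut pups the conditional Tsc2 alleles were recombined by Nestin-driven Cre-ERT2, which needs tamoxifen and also turned on a red fluorescent reporter, so a cell in which Cre did not act keeps its Tsc2 alleles. The pups were injected with tamoxifen as neonates, their cells were cultured a week later and the cultures were passaged once. The paper describes its subcultured NSCs as uniformly positive for the reporter and as having lost Tsc2. Its tuberin blots are of the NSCs from its other bulk RNA sequencing experiment. Whether wt/wt pups carried Cre is not clear in the sources used here.

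Messenger RNAs leave the nucleus to meet ribosomes, whereas nuclear lncRNAs act where they are made. Neat1 is the scaffold of paraspeckles, nuclear bodies that hold RNA and RNA-binding proteins, and Malat1 is an abundant RNA of nuclear speckles, which store splicing factors. Meg3 is expressed from the maternal copy of the Dlk1-Meg3 imprinted domain, Kcnq1ot1 from the paternal copy of the Kcnq1 domain, where it silences neighbouring genes in cis, and Miat (Gomafu) is a neuronal RNA that lies in its own nuclear spots. Since none of the 5 is known as a template for a major protein, their level in the heavy part of a sucrose gradient gauges RNA that sediments there without being a classical mRNA. Every culture was given cycloheximide, which holds ribosomes on mRNA, for 15 minutes before lysis. Both RNA kinds therefore come from treated cells. Total RNA was taken from the whole homogenate, nuclei included, before a spin at 500 x g. The supernatant of that spin then went onto 17.5% to 50% sucrose, and the heavy 3 mL were taken as polyribosomal RNA.

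The 5 genes lie on 4 chromosomes of the mm10 genome (GRCm38), as annotated in GENCODE M21. Neat1 (chr19:5824708-5845478, minus strand) and Malat1 (chr19:5795690-5802672, minus strand) are neighbours, and their longest models have 20771 and 6983 bases. Meg3 (chr12:109541001-109571726, plus strand) and Miat (chr5:112213228-112229395, minus strand) are spliced, with longest transcripts of 14548 and 9163 bases. Kcnq1ot1 (chr7:143203458-143296549, minus strand) is an unspliced antisense transcript of 93092 bases inside Kcnq1. The library kit kept no strand information, and reads from Kcnq1ot1 and Kcnq1 cannot be told apart where they overlap. Kcnq1 itself was listed at no more than 3.67 normalized counts in any library, and its reads were not separated further.

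Neat1 and Malat1 end in an unusual way, which matters in libraries selected for poly(A) tails. Each long form is cut by RNase P and keeps no ordinary tail, its 3′ end being held in a triple helix of 2 U-rich motifs and an A-rich tract. Their sequences are shown because poly(A) selection acts on this end of the RNA, from the first U-rich motif to the A-rich tract, with these 3 elements (TTTCTTTTC, TTTTGCTTT and AAAGCAAAA, sense strand) in capitals.
Malat1: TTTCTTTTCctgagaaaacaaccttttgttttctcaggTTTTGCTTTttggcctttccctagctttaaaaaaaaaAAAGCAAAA
Neat1: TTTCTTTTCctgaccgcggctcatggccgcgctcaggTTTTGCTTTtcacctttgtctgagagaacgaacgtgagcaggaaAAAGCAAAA
The Malat1 stretch is chr19:5795982-5796065 and the Neat1 stretch is chr19:5824708-5824797, both on the minus strand. The Neat1 model ends at the last base shown, and the Malat1 model runs 292 bases further. Among the longest transcripts of 55341 genes, these 2 alone (0.00361%) held both U-rich motifs within the 120 bases before the A-rich tract. A shorter, tailed form of Neat1 shares its 5′ end with the long form, and gene-level values do not separate the forms.

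Miat carries copies of TACTAAC, the sequence of the yeast branch point, which the splicing factor SF1 binds. Its longest transcript held 6 copies on the sense strand, and 2 of 4189 genes with transcripts of 5 kb or longer (0.0477%) held as many. The 3 copies that lie closest together are shown in capitals as the element Miat is known for, at chr5:112216756-112216808 on the minus strand.
Miat: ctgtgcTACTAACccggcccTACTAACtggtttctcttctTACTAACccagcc
Kcnq1ot1 held 4 copies in its far longer transcript, Neat1 held 1, and Meg3 and Malat1 held 0.

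Values are the authors' normalized read counts, made separately for the 2 RNA kinds. Their totals were 87.4 to 100.5 M per polyribosomal library and 65.6 to 73.7 M per total RNA library, from estimated depths of 51.7 to 278.5 M and 24.6 to 137.9 M reads. Tsc2 was 5956 to 9339 in polyribosomal libraries of mut/mut cultures against 10505 to 13165 in those of wt/wt cultures (limma, -0.49, adjusted p = 0.0389). In total RNA it was 5592 to 7076 against 6232 to 7836 (limma, -0.10, adjusted p = 0.422). Gene-level values do not separate recombined from intact Tsc2 alleles. NSC markers such as Nes and Sox2 were high in all 8 cultures, the summed level of the 17 listed being 1036900 to 1133800 in mut/mut and 960800 to 1113400 in wt/wt total RNA. Y-linked genes and Xist separated the cultures. In total RNA, the 4 Y-linked genes summed to 4775 in mut/mut culture 1 and 6.57 to 48.6 in mut/mut cultures 2 to 4, against 4203 to 5802 in wt/wt cultures 1 to 3 and 258.2 in wt/wt culture 4. Culture wt/wt 2 held both Y-linked RNA and Xist (3527). Genotype and these markers are therefore partly confounded. Within-marker levels are given beside the results, as are fits adjusted for the Y-linked level for lncRNAs that were called and for translational efficiency. The summed share was not adjusted. In bulk RNA, fewer cells of a type and less RNA per cell cannot be told apart.

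Total RNA was compared between genotypes to ask which lncRNA levels differ before any fractionation. Of the 5 lncRNAs, 4 were higher in mut/mut cultures, Neat1 the most, at 5.21 times the wt/wt mean. Across 14967 genes tested, 19.7% were higher in mut/mut at an adjusted p under 0.05. The median log2 difference was 1.29 for the 5 lncRNAs and 0.01 for all genes tested.

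Neat1 reached 3560, 1743, 4254 and 1772 normalized counts in total RNA of mut/mut cultures 1 to 4, against 727, 437, 386 and 626 in wt/wt cultures 1 to 4. Every mut/mut culture lay above every wt/wt culture. The difference was 2.31 ± 0.31 on the log2 scale (SE, n = 4 each, limma, adjusted p = 0.00257). Malat1 reached 15990, 8500, 13541 and 6681 in mut/mut cultures, against 3935, 4774, 4869 and 5492 in wt/wt cultures. These groups did not overlap either, and the difference was 1.15 ± 0.24 (limma, adjusted p = 0.00656). Neat1 and Malat1 were the 2 of 5 lncRNAs whose groups did not overlap, as 17.8% of all genes tested had every mut/mut culture above every wt/wt culture.

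Meg3 was much scarcer. It stood at 82.2, 54.2, 126.8 and 31.3 normalized counts in mut/mut cultures, against 52.1, 13.6, 17.9 and 24.3 in wt/wt cultures. The value in wt/wt culture 2 rests on about 4.56 reads. The groups overlapped through mut/mut culture 4 and wt/wt culture 1, and the difference was 1.42 ± 0.48 (limma, adjusted p = 0.0401). The call for Meg3 was lost without mut/mut culture 1 (1.31, adjusted p = 0.0979) or 3 (1.10, 0.102) and without wt/wt culture 2 (1.17, 0.108), 3 (1.29, 0.0944) or 4 (1.43, 0.0723), by limma.

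Miat stood at 97.7, 57.8, 94.7 and 36.1 normalized counts in mut/mut cultures, against 27.3, 23.8, 37.0 and 20.4 in wt/wt cultures. Only mut/mut culture 4 fell within the wt/wt range, and the difference was 1.29 ± 0.34 (limma, adjusted p = 0.0152). Kcnq1ot1 stood at 189.6, 149.0, 339.2 and 113.8 in mut/mut cultures, against 83.0, 126.8, 144.1 and 114.1 in wt/wt cultures. Culture 3 of the mut/mut group was far above the rest, the groups overlapped, and the difference of 0.66 ± 0.32 did not pass the test (limma, adjusted p = 0.117). Without mut/mut culture 4 it was 0.88 and passed narrowly (limma, adjusted p = 0.0485).

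Within the mut/mut group, cultures 1 and 3 held the highest total RNA level of each of the 5 lncRNAs. The same cultures had the lowest mean level of 30 S phase genes, 11.98 and 11.52 on the log2 scale, against 12.58 and 12.34 in mut/mut cultures 2 and 4 and 12.70 to 13.00 in wt/wt cultures. Without cultures 1 and 3 the difference was 1.74 for Neat1 (limma, adjusted p = 0.00991) and 0.67 for Malat1 (0.0236), and both still passed. Meg3 (0.77, adjusted p = 0.331) and Miat (0.77, adjusted p = 0.161) no longer passed by limma. The part of S phase in these levels was not tested.

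**Figure D1:**
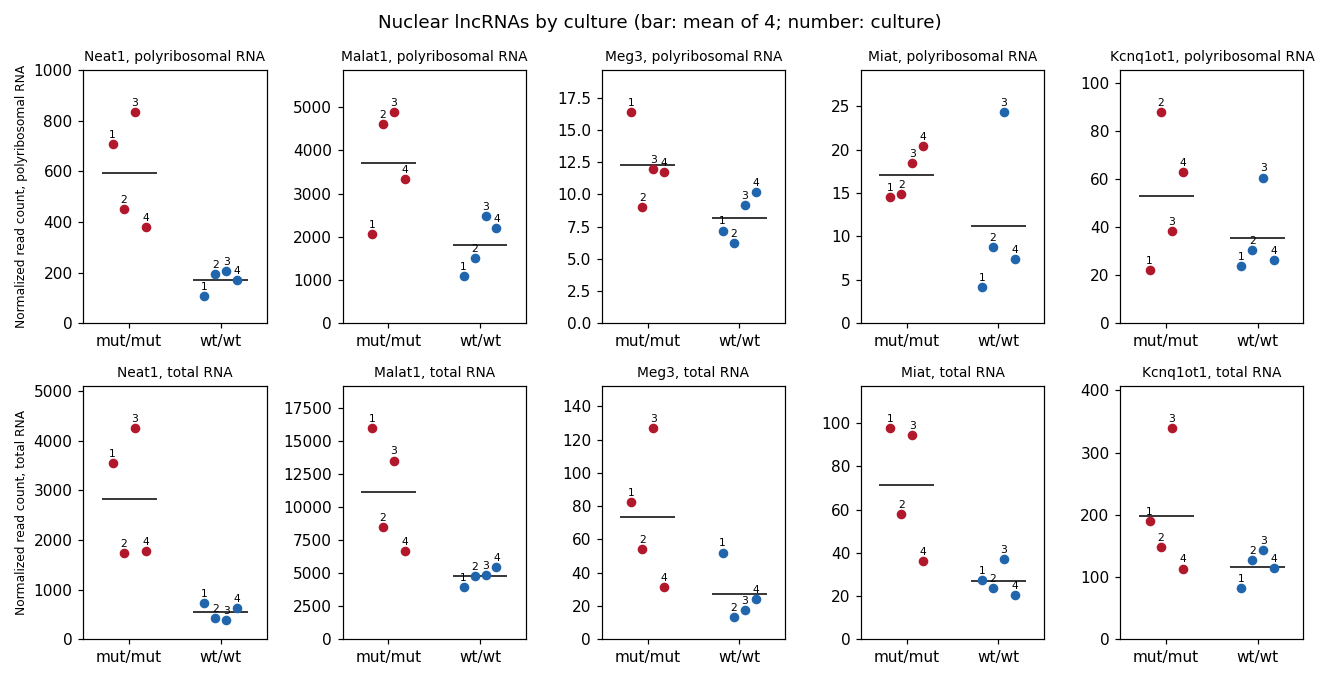
Normalized read counts of the 5 lncRNAs in polyribosomal RNA (upper row) and total RNA (lower row) of each culture, Tsc2 mut/mut left and Tsc2 wt/wt right, with the culture number beside each point and the mean of 4 as a line. In total RNA, Neat1 and Malat1 do not overlap between genotypes, and mut/mut cultures 1 and 3 are the highest for all 5.

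Markers of other cell types were also measured in each culture. Calls in their lists stand beside 19.7% higher and 20.7% lower over all genes tested in total RNA. The 16 microglial markers summed to 8510, 32428, 7069 and 17646 in total RNA of mut/mut cultures 1 to 4, against 4913 to 7459 in wt/wt cultures, and none was at 0. Within mut/mut they were highest in cultures 2 and 4, and 6 of 16 were higher in mut/mut. The summed oligodendrocyte and endothelial levels and the mean choroid plexus level were instead highest in mut/mut cultures 1 and 3, where the lncRNAs were highest in total RNA. The oligodendrocyte list, which includes the myelin gene Mbp, summed to 22057, 19467, 27163 and 20081 in mut/mut cultures 1 to 4, against 9487 to 11209 in wt/wt cultures, and 11 of its 12 tested genes were higher. The endothelial and mural list summed to 11203, 7064, 12740 and 7380 in mut/mut cultures 1 to 4, against 3477 to 5979 in wt/wt cultures, and 5 of 9 tested genes were higher and 1 lower. Its mean log2 level was 7.34, 6.84, 7.41 and 7.40 in mut/mut cultures 1 to 4, against 6.30 to 6.88 in wt/wt cultures. By that measure culture 4 was above culture 1. The choroid plexus and ependymal list, which includes Ttr, averaged 5.56, 4.00, 6.24 and 4.92 on the log2 scale in mut/mut cultures 1 to 4, against 3.62 to 3.82 in wt/wt cultures, and 2 of 7 tested genes were higher. Its summed level did not separate the groups, at 5540, 6108, 7404 and 6087 in mut/mut cultures 1 to 4 against 4487 to 5753 in wt/wt cultures. By that sum culture 1 was the lowest of the mut/mut group. Of the 12 tested astrocyte genes 8 were higher, and their mean log2 level was 13.43, 13.05, 13.99 and 13.44 in mut/mut cultures 1 to 4, against 12.42 to 12.65 in wt/wt cultures, with culture 3 highest and cultures 1 and 4 alike. Of 16 tested neuroblast and neuron genes, 4 were higher and 2 lower in total RNA, with a median log2 difference of 0.07. The mean log2 level of that list was 6.82 to 7.23 in mut/mut and 6.74 to 7.07 in wt/wt cultures. At most 3 of the 10 choroid plexus genes and 1 of the oligodendrocyte or endothelial genes were at 0 in a library of total RNA. The part of these cell types in the lncRNA levels was not tested.

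Sex-linked RNA could be set beside the levels in each culture. Among cultures high in Y-linked RNA, mut/mut culture 1 had more Neat1 than the 3 wt/wt cultures in total RNA (3560, against 386 to 727) and also more Malat1 (15990, against 3935 to 4869), Meg3 (82.2, against 13.6 to 52.1), Miat (97.7, against 23.8 to 37.0) and Kcnq1ot1 (189.6, against 83.0 to 144.1). Among cultures low in Y-linked RNA, mut/mut cultures 2 to 4 held 1743 to 4254 Neat1 against 626 in wt/wt culture 4. Kcnq1ot1 overlapped there, at 113.8 to 339.2 against 114.1. In the fit adjusted for the Y-linked level, Neat1 (2.47, adjusted p = 0.0431), Malat1 (1.48, 0.0431) and Miat (1.81, 0.0445) passed in total RNA by limma, and Meg3 did not (1.65, 0.120).

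Polyribosomal RNA was compared to ask whether the level of each lncRNA within heavy-fraction RNA differed between genotypes. Neat1 and Malat1 were higher in mut/mut cultures, and Meg3, Miat and Kcnq1ot1 did not pass the test. Across 14412 genes tested, 11.7% were higher in mut/mut. The median log2 difference was 0.82 for the 5 lncRNAs and 0.01 for all genes tested.

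Neat1 in polyribosomal RNA was 709, 452, 836 and 379 normalized counts in mut/mut cultures 1 to 4, against 107, 196, 207 and 172 in wt/wt cultures. The groups did not overlap, which held for this 1 of 5 lncRNAs and for 13.3% of all genes tested, and the difference was 1.77 ± 0.28 (limma, adjusted p = 0.00305). With the Y-linked covariate it was 1.98 (limma, adjusted p = 0.0540). Neat1 was higher in mut/mut both among cultures high in Y-linked RNA (709 against 107 to 207) and among those low in it (379 to 836 against 172). Malat1 was 2054, 4603, 4890 and 3327 in mut/mut cultures, against 1081, 1509, 2484 and 2192 in wt/wt cultures. Culture 1 of the mut/mut group, the highest in total Malat1, was the lowest of its group here and lay within the wt/wt range. The difference was 1.03 ± 0.31 (limma, adjusted p = 0.0383).

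The polyribosomal call for Malat1 rested on most of the libraries. It was lost without mut/mut culture 2 (0.90, adjusted p = 0.0654), 3 (0.87, 0.102) or 4 (1.06, 0.0663) and without wt/wt culture 1 (0.80, 0.0867) or 2 (0.96, 0.102), by limma. With the Y-linked covariate Malat1 differed by 0.52 (limma, adjusted p = 0.367). Among cultures high in Y-linked RNA, mut/mut culture 1 (2054) lay within the range of wt/wt cultures (1081 to 2484). Among those low in it, mut/mut cultures 2 to 4 held 3327 to 4890 against 2192 in wt/wt culture 4.

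The remaining 3 lncRNAs were thinly covered in the heavy fraction. Meg3 was 16.4, 9.04, 11.9 and 11.7 in mut/mut cultures, against 7.19, 6.21, 9.15 and 10.1 in wt/wt cultures, from about 5.25 to 26.2 reads per library. Miat was 14.5, 14.9, 18.5 and 20.5 in mut/mut cultures, against 4.13, 8.80, 24.4 and 7.39 in wt/wt cultures, from about 3.02 to 69.6 reads. Kcnq1ot1 was 22.2, 87.9, 38.1 and 62.7 in mut/mut cultures, against 23.9, 30.3, 60.6 and 26.2 in wt/wt cultures. The groups overlapped for all 3. Among cultures high in Y-linked RNA, Meg3 of mut/mut culture 1 was above the wt/wt range (16.4 against 6.21 to 9.15). Miat lay within it (14.5 against 4.13 to 24.4) and Kcnq1ot1 below it (22.2 against 23.9 to 60.6). Among cultures low in Y-linked RNA, Meg3 overlapped (9.04 to 11.9 against 10.1). Miat (14.9 to 20.5 against 7.39) and Kcnq1ot1 (38.1 to 87.9 against 26.2) were higher there in mut/mut. Their differences were 0.53 for Meg3, 0.82 for Miat and 0.49 for Kcnq1ot1 (limma, adjusted p = 0.275, 0.202 and 0.412), so differences of these sizes did not pass at this depth. Leaving out 1 culture, Miat was 0.49 without wt/wt culture 1 and 1.26 without wt/wt culture 3, and Kcnq1ot1 was 0.19 without mut/mut culture 2, 0.84 without mut/mut culture 1 and 0.78 without wt/wt culture 3.

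Together the 5 lncRNAs made up a small part of each library, most of it Malat1 (72.9% to 91.1% of their sum in polyribosomal RNA and 73.8% to 89.3% in total RNA). Their share of the column total was 0.00487% ± 0.00156 in polyribosomal RNA of mut/mut cultures and 0.00207% ± 0.000729 in that of wt/wt cultures (SD, n = 4 each), a ratio of 2.35. In total RNA it was 0.0211% ± 0.00859 in mut/mut and 0.00747% ± 0.000844 in wt/wt cultures, a ratio of 2.82. In both kinds of RNA all 4 mut/mut libraries lay above all 4 wt/wt libraries, though in polyribosomal RNA the nearest were close (0.00292% in mut/mut culture 1 against 0.00286% in wt/wt culture 3). The exact permutation test gave p = 0.0286 for each (two-sided, adjusted over the 2 tests 0.0286), the smallest p that 4 against 4 allows.

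**Figure D2:**
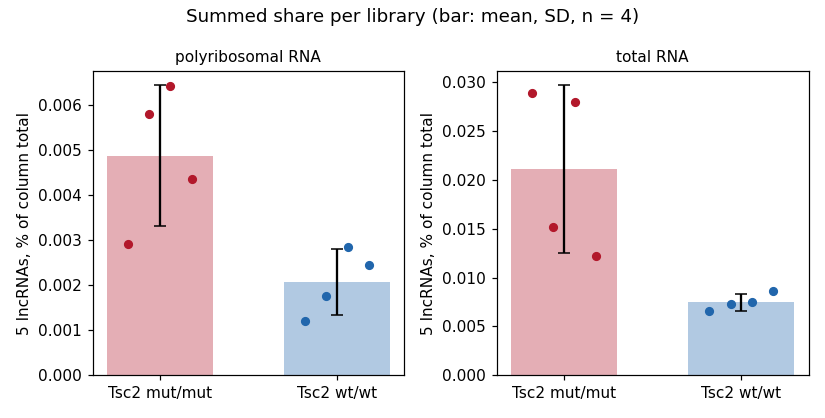
Summed share of Neat1, Malat1, Meg3, Miat and Kcnq1ot1 in each library as a percent of the column total, in polyribosomal RNA (left) and total RNA (right), with Tsc2 mut/mut left of Tsc2 wt/wt. Bars are means, error bars SD and points the 4 cultures, and the mean share is 2.35 times (polyribosomal) and 2.82 times (total) higher in mut/mut.

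The ratio of polyribosomal to total RNA was then taken within each culture, to place the lncRNAs among all genes. As the tables were normalized separately, the log2 ratio was set against the median gene of the same culture. All 40 values (5 lncRNAs in 8 cultures) were below that median, by 0.42 to 3.08 on the log2 scale, and 28 were lower by at least 1. The first quartile of all genes tested was -0.65. The share of single values lower by at least 1 was not counted over all genes. Each of the 5 lncRNAs was below the median in all 8 cultures, as were 31.9% of 14333 genes tested. None was lower by at least 1 in all 8, against 6.97% of genes.

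By mean over the 8 cultures, Neat1 was lowest at -1.74 ± 0.60 (SD, n = 8 cultures), followed by Meg3 at -1.69 ± 0.88, Kcnq1ot1 at -1.66 ± 0.90, Miat at -1.47 ± 0.77 and Malat1 at -1.32 ± 0.68. No pair in this order differed beyond its spread over cultures. The exact sign-flip permutation test gave an unadjusted p of 0.148 for Neat1 against Malat1 (difference -0.42) and at least 0.148 for all 10 pairs, and adjusted p-values of 0.609 or more. The median percentile among all genes was 3.20 for Neat1, 6.01 for Kcnq1ot1, 7.48 for Meg3, 8.82 for Miat and 13.6 for Malat1.

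Cultures varied widely in this measure. Miat was at the 34.8th percentile in wt/wt culture 3 and at the 0.970th in mut/mut culture 1. Malat1 was at the 0.460th percentile in mut/mut culture 1 and at the 20.6th to 22.2nd in mut/mut cultures 2 and 4 and wt/wt culture 3. Kcnq1ot1 split the mut/mut group, with -2.84 and -2.89 in cultures 1 and 3 and -0.57 and -0.60 in cultures 2 and 4. Neat1 was the most even within mut/mut, at -2.13, -1.76, -2.12 and -1.98 in cultures 1 to 4, against -2.53, -0.99, -0.73 and -1.67 in wt/wt cultures 1 to 4.

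Length goes with a low ratio in these tables, and the 5 transcripts are long. Protein-coding genes with a transcript of 5 kb or longer (3231) had a median of -0.52, against 0.01 for all 13612 protein-coding genes. Among all genes of 5 kb or longer, the median percentile was 6.33 for Neat1, 9.36 for Kcnq1ot1, 16.4 for Meg3, 16.4 for Miat and 24.7 for Malat1. Other lncRNAs (572) had a median of -0.29. The part of length in the lncRNA ratios was not tested.

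Xist, the RNA that coats the inactive X chromosome, lay far lower in the cultures that held much of it. In the 5 cultures with more than 1000 normalized counts of Xist in total RNA, its log2 ratio minus the culture median ran from -5.49 to -4.64, and all 25 ratios of the 5 lncRNAs in those cultures were higher. It had 856, 384 and 526 polyribosomal against 24246, 20228 and 19983 total normalized counts in mut/mut cultures 2 to 4. In mut/mut culture 1 and wt/wt cultures 1 and 3, where total Xist was only 62.7, 37.0 and 68.9, it stood at -5.05, 0.11 and -0.99. Rian, a nuclear RNA of the Meg3 domain, averaged -2.74 ± 0.80 (SD, n = 8 cultures), Firre -2.37 ± 0.34 and Tug1 -1.65 ± 0.37. The 18 other nuclear or nuclear-enriched lncRNAs tested had a median of -0.94 and ran from -3.84 to 0.69. The lowest was Xist itself, averaged over all 8 cultures, and the highest was Peg13. The 12 lncRNAs listed as cytoplasmic had a median of -0.58 and ran from -1.77 to -0.11, with Gas5, a host of small nucleolar RNAs, at -0.67 ± 0.48. Among them 2900097C17Rik (-1.77 ± 0.29), H19 (-1.38 ± 0.59) and Dancr (-1.27 ± 0.41) lay near the means of the 5 lncRNAs. A low ratio was therefore not particular to nuclear lncRNAs.

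**Figure D3:**
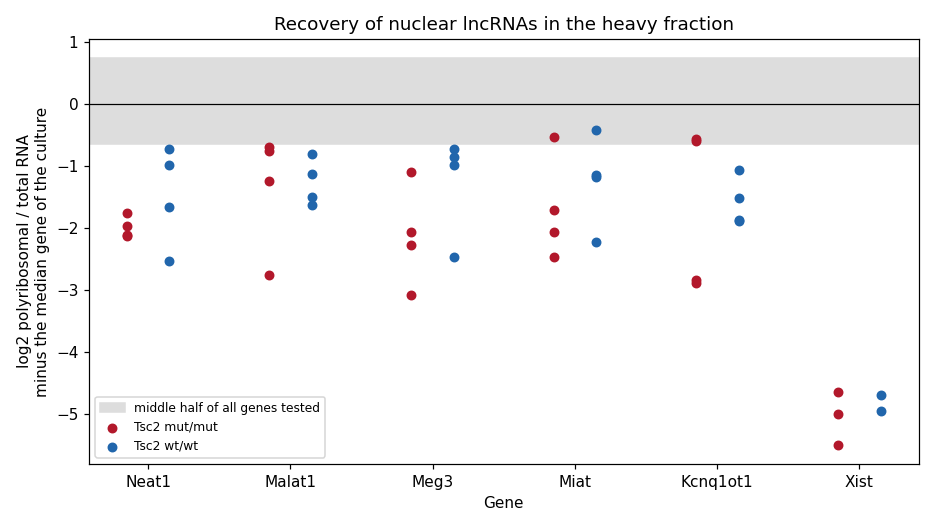
log2 ratio of polyribosomal to total RNA minus that of the median gene in the same culture, for the 5 lncRNAs in 8 cultures and for Xist in the 5 cultures where its total RNA exceeded 1000 normalized counts, Tsc2 mut/mut left of Tsc2 wt/wt. The grey band spans the first to the third quartile of 14333 genes, and all lncRNA points lie below 0 with those of Xist at -4.64 and lower.

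Translational efficiency, here the interaction of genotype and fraction, asks whether the ratio itself differed between genotypes. All 5 lncRNAs had a lower estimate in mut/mut cultures, as 48.2% of genes did, and none of the 5 passed the test, whereas 7.89% of 14333 genes were called lower. The estimates were -0.54 ± 0.33 for Neat1, -0.13 ± 0.49 for Malat1, -0.89 ± 0.47 for Meg3, -0.48 ± 0.46 for Miat and -0.17 ± 0.53 for Kcnq1ot1 (SE, limma, adjusted p = 0.294, 0.893, 0.218, 0.509 and 0.861). At an unadjusted p under 0.05 the count was also 0 of 5, against 29.6% of all genes.

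Single cultures decided some of these estimates. Without wt/wt culture 1, where the ratios of Neat1, Malat1, Meg3 and Miat were the lowest of their group, the estimate was -0.91 for Neat1 (limma, adjusted p = 0.0022) and -1.31 for Meg3 (0.0331), and both passed. Malat1 turned to 0.33 without mut/mut culture 1 and to 0.04 without wt/wt culture 3. Kcnq1ot1 turned to 0.20 without mut/mut culture 1, 0.23 without mut/mut culture 3 and 0.01 without wt/wt culture 3.

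**Figure D4:**
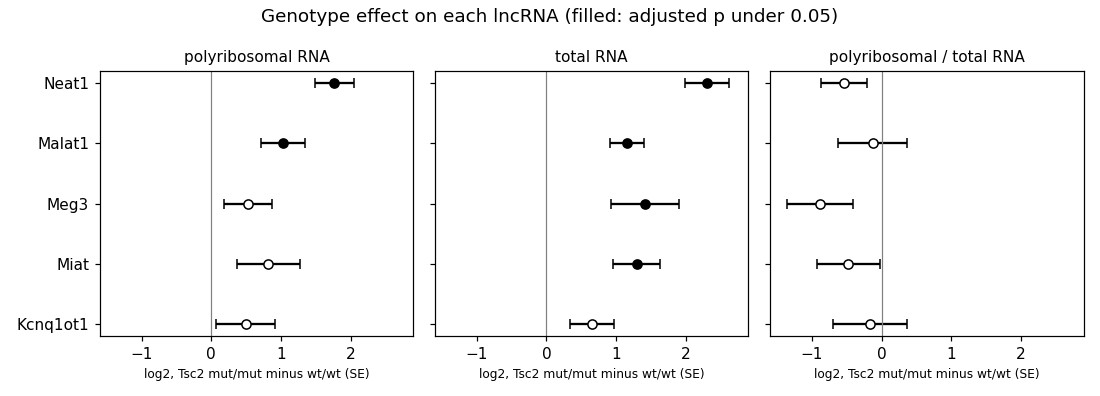
log2 difference, Tsc2 mut/mut minus Tsc2 wt/wt, of each lncRNA in polyribosomal RNA, total RNA and their ratio, with standard errors from limma (n = 4 cultures a genotype) and filled points for an adjusted p under 0.05. Neat1 and Malat1 pass in polyribosomal RNA, all but Kcnq1ot1 pass in total RNA, and none passes in the ratio.

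Among genes that work with these RNAs, most of those that changed were lower in mut/mut cultures. Over all genes tested, 20.7% were lower in total RNA and 11.9% in polyribosomal RNA. Of 27 paraspeckle protein genes tested, 15 were lower in total RNA of mut/mut cultures, 0 were higher and 12 did not pass, with a median log2 difference of -0.32 against 0.01 for all genes. Hnrnpa1, an RNA-binding protein of splicing, fell by 0.57 (limma, adjusted p = 0.00446) and Nudt21, a 3′ end processing factor, fell by 0.61 (0.00624). In polyribosomal RNA 16 of the 27 were lower and 0 higher. Of 18 nuclear speckle and splicing genes, 8 were lower and 1 higher in total RNA, the splicing factors Srsf7 (-0.86, adjusted p = 0.00486) and Srsf3 (-0.62, 0.00743) among the lower by limma. Of 30 genes for 3′ end processing, decay and m6A of nuclear RNA, 27 were lower in total RNA and 1 higher, with a median of -0.57. Among them Rpp14 (-0.62), Pop5 (-0.79) and Rpp40 (-1.28), subunits of the RNase P and RNase MRP family, were lower (limma, adjusted p = 0.00257, 0.00257 and 0.00333). The S phase genes, which were lower for 29 of 30 with a median of -0.73, moved the same way.

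Imprinted neighbours gave a mixed picture. In the Meg3 domain, Wars, a tRNA synthetase beside the imprinted genes, was the 1 of 5 tested genes that passed in total RNA (-0.49 ± 0.10, limma, adjusted p = 0.00535). Dlk1, the paternally expressed Notch-like ligand gene, differed by 0.26 ± 0.17 and Rian by 0.47 ± 0.21 and neither passed. In the list of the Kcnq1ot1 domain and genes beside it, 5 of 10 tested genes were higher and 2 lower, with a median of 0.37. That list includes H19, which is also listed as a cytoplasmic lncRNA. In it, mean total RNA was lower in mut/mut cultures for Cars (4688.5 against 7504.7 in wt/wt) and Nap1l4 (19677 against 25256). The shares of all genes were 19.7% higher and 20.7% lower. Cdkn1c, a cell cycle inhibitor that Kcnq1ot1 silences on the paternal copy, rose by 0.61 ± 0.21 (limma, adjusted p = 0.0437), and the tetraspanin gene Cd81 rose by 0.53 ± 0.10 (0.00413). Beside Malat1, Neat1 and Miat, 2 of 11 tested neighbours were higher, Ltbp3 (1.00 ± 0.23, limma, adjusted p = 0.00885) and Slc25a45 (0.53 ± 0.16, 0.0238), and 2 were lower, shares near those of all genes (19.7% higher and 20.7% lower).

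Other nuclear or nuclear-enriched lncRNAs were little changed in total RNA. Of 21 tested, 2 were higher in mut/mut, Firre (0.56 ± 0.13, limma, adjusted p = 0.00807) and Hotairm1 (1.01 ± 0.34, 0.0378), and Sox2ot was lower (-0.71 ± 0.19, 0.0154), with a median of 0.06. Over all genes tested, 19.7% were higher and 20.7% lower in total RNA. Of 12 lncRNAs listed as cytoplasmic, 9 were lower in total RNA and 0 higher, with a median of -0.61. Those with the smallest p were the snoRNA hosts Snhg1 (-0.75, adjusted p = 0.00303), Gas5 (-0.55, 0.00322) and Snhg5 (-0.79, 0.0033) and Epb41l4aos (-0.60, 0.00327), by limma. In polyribosomal RNA 1 of these 12 was lower and 0 higher, with a median of -0.07, and in translational efficiency 3 were higher and 0 lower, with a median of 0.53, where 5.07% of all genes were called higher. Of 18 other nuclear or nuclear-enriched lncRNAs, 2 were higher and 2 lower in polyribosomal RNA (median 0.33) and likewise in translational efficiency (median 0.36). The shares of all genes were 11.7% higher and 11.9% lower in polyribosomal RNA, and 5.07% and 7.89% in translational efficiency. The median of the 5 lncRNAs in translational efficiency was -0.48, and the difference between these medians was not tested.

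Over the 16 libraries, the genes whose pattern was most like that of each lncRNA were found by Pearson correlation after centring within each table. They were Fam234a (0.99), Slc2a8 (0.98) and Porcn (0.98) for Neat1, and Gm14634 (0.92), Opcml (0.91) and Fmn1 (0.91) for Malat1. For Meg3 they were Ptprn (0.93), Crybg1 (0.93) and Slc4a11 (0.92), for Miat Nell2 (0.91), Firre (0.88) and B930095G15Rik (0.88), and for Kcnq1ot1 Dnah7b (0.87), Nrk (0.87) and Itpr2 (0.84). Among the 5, Malat1 correlated with Miat at 0.84, with Neat1 at 0.83 and with Kcnq1ot1 at 0.75, and Meg3 with Kcnq1ot1 at 0.35. Among all genes ranked by correlation with Malat1, Miat was at rank 64, Neat1 at 72, Kcnq1ot1 at 612 and Meg3 at 2165. Malat1 was at rank 1178 for Neat1, and Kcnq1ot1 at 4482 for Meg3, so many other genes were more alike. These values describe 16 libraries from 8 cultures that share the genotype difference and, in pairs, a culture.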

How the data were processed

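Total and polyribosomal RNA of 8 NSC cultures was sequenced as poly(A)-selected paired ends. Per the study's methods, the authors used STAR for alignment to mm10 after adapter trimming, and DESeq2 for normalization. The read counter is not given in the sources used here. The deposited values are a signal, namely normalized read counts per gene, in 1 table of 8 libraries for each RNA kind. Low values lay within 0.1 read of a whole read for 73.0% to 95.4% per library, so whole reads were not recovered and no count model was used, and read numbers are estimates. Rows whose names had become dates (26 of 24972) were left out. No column was left unmapped. The authors' counts came from a kit without strand.

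Groups and culture numbers came from the labels. Differences were tested with limma 3.58.1 (R 4.3.3, trend, robust) on log2(value + 1), which understates changes of low genes, over genes with a mean of at least 10, with Benjamini-Hochberg adjustment over all genes and a threshold of 0.05. Translational efficiency was the interaction over 16 libraries with culture as a block. In the descriptions, 1 number marks a culture in both RNA kinds, and the deviations of its 2 libraries from group means correlated at 0.233 to 0.731. Nothing says that same-numbered cultures of different genotype were prepared together. The paper gives 4 cultures per genotype for its polyribosome profiling and 4 mice per genotype for the gene ontology drawn from it. It does not say which culture came from which mouse, so p-values reflect only variation among cultures, which may in part be technical. Shares used an exact permutation test over 70 arrangements and ratios a sign-flip test over 256 patterns. The fits were tested on simulated data.

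Named genes are the 5 lncRNAs, Tsc2, up to 4 genes of each list by smallest p, and the 3 genes most like each lncRNA. Nes, Sox2, Kcnq1, Tug1, Peg13, Cdkn1c, Cars, Nap1l4 and the ratios of other lncRNAs were named beside these. The 5 lncRNAs and the lists were chosen with earlier results of these data known, and the S phase list was added after the data were seen. Sequences and coordinates come from GENCODE M21 (GRCm38, the build of mm10). Pseudocounts, filters, scaling, moderation, the block, a Y-linked covariate and left-out cultures were the alternatives.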

Additional observations from a re-analysis of the deposited data

Results flagged for a closer look

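Meg3 in wt/wt culture 1 stood apart in the ratio of polyribosomal to total RNA. Its log2 ratio, before the culture median was taken off, was -2.70, against -1.19 to -0.89 in the other wt/wt cultures, and the gap to the nearest culture was 0.839 of the range of the group. Its polyribosomal value rests on about 5.25 reads. Of 30 groups of 4 cultures looked at in this way, this was 1, and chance alone flags about 1 in 20.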

How the results depend on the processing

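Neat1 and Malat1 in total RNA kept their direction and their call under every alternative run, left-out cultures included, and so did the direction of the summed share. The 2 choices that left out mut/mut cultures 1 and 3 and set genes of 5 kb or longer as the comparison were made after seeing the data. Without trend and robust moderation, Meg3 in total RNA (1.42, limma adjusted p = 0.0562) and Malat1 in polyribosomal RNA (1.03, 0.0577) lost their calls, and so they did in the exact permutation test of each RNA alone (two-sided, p = 0.0571 and 0.0857), as did Miat in total RNA (1.29, p = 0.0571). With the Y-linked covariate the calls numbered 1063 in total and 43 in polyribosomal RNA, and Meg3 in total RNA (1.65), Neat1 (1.98) and Malat1 (0.52) in polyribosomal RNA lost theirs. Without mut/mut cultures 2 and 4 the calls in polyribosomal RNA numbered 5402, Kcnq1ot1 passed in total RNA (1.14) and in translational efficiency (-1.30), Malat1 in polyribosomal RNA no longer passed (0.88) and Kcnq1ot1 there turned to -0.17. Without mut/mut cultures 1 and 3 the calls numbered 2296 and 1168, Meg3 (0.775) and Miat (0.765) in total RNA and Malat1 in polyribosomal RNA (1.18) lost theirs, and the translational efficiency of Malat1 (0.51), Miat (0.093) and Kcnq1ot1 (0.97) turned positive. For translational efficiency, limma called 1858 genes, but 0 without trend and robust moderation, without the replicate block of cultures, with the Y-linked covariate and without mut/mut cultures 1 and 3, although 3980, 2221, 2214 and 3250 genes had an unadjusted p under 0.05. Among genes of 5 kb or longer the median percentile of Malat1 by ratio was 24.7. The cause of these changes was not tested, beyond the smaller number of cultures where some were left out.

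Leaving out 1 culture at a time, called genes ranged from 1884 to 4087 in polyribosomal RNA, against 3403 over all cultures, with 2101 and 2154 without mut/mut cultures 1 and 3 and 2137, 1884 and 1895 without wt/wt cultures 1, 2 and 3. In translational efficiency they ranged from 649 to 3282, with 649 and 1231 without mut/mut cultures 1 and 3 and 3282, 843 and 765 without wt/wt cultures 1, 2 and 3. In total RNA Meg3 ranged from 1.10 to 1.79 and Kcnq1ot1 from 0.36 to 0.88, and in polyribosomal RNA Malat1 from 0.80 to 1.29, Miat from 0.49 to 1.26 and Kcnq1ot1 from 0.19 to 0.84. Translational efficiency ranged from -0.91 to -0.29 for Neat1, -0.36 to 0.33 for Malat1, -1.31 to -0.57 for Meg3, -0.85 to -0.19 for Miat and -0.56 to 0.23 for Kcnq1ot1. In the order by ratio, Neat1 minus Meg3 ranged from -0.19 to 0.076, Neat1 minus Kcnq1ot1 from -0.22 to 0.10 and Meg3 minus Kcnq1ot1 from -0.19 to 0.20. Scaling by library size alone moved the median of all genes to 0.11 in total and 0.13 in polyribosomal RNA, with 3838 higher and 2263 lower calls against 2944 and 3091 in total RNA, and 2579 and 927 against 1690 and 1713 in polyribosomal RNA. Under it the lncRNA calls were as before. Same-numbered mut/mut and wt/wt cultures deviated from their group means with correlations of -0.13 to 0.13, so they share only a number. With that number as a replicate block, the calls numbered 4741 in total and 2361 in polyribosomal RNA, and none of the lncRNA calls changed. Depth limits Meg3 and Miat, whose polyribosomal values rest on about 3.02 to 69.6 reads. In total RNA of wt/wt culture 2, Meg3 rests on about 4.56 reads and Miat on about 7.95.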
